A study of Arabidopsis thaliana with 24 samples.

Results

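A set of 10 classical root hair genes of Arabidopsis thaliana was followed through shoot regeneration from hypocotyl explants of wild type (WT) and the siz1-2 mutant. All 10 were chosen by their locus identifiers and all 10 were found among the 25960 genes of the deposited files. They were 4 bHLH transcription factors (RHD6, AT1G66470; RSL1, AT5G37800; RSL2, AT4G33880; RSL4, AT1G27740), 5 cell wall proteins (EXPA7, AT1G12560; EXPA18, AT1G62980; PRP1, AT1G54970; PRP3, AT3G62680; LRX1, AT1G12040) and COW1 (AT4G34580), a phosphatidylinositol transfer protein. Both genotypes were in the Columbia (Col-0) ecotype, and siz1-2 carries a mutation in SIZ1, a ligase that attaches the small protein SUMO to other proteins. Seedlings grew for 7 days in the dark at 22 °C, and explants about 10 mm long were cut from their hypocotyls. Callus-inducing medium (CIM) contained 2,4-D, an auxin, at 0.5 µg/ml and kinetin, a cytokinin, at 0.05 µg/ml. Shoot-inducing medium (SIM) contained IAA, an auxin, at 0.15 µg/ml and 2-IPA, a cytokinin, at 0.5 µg/ml. The freshly cut explants, collected up to 15 minutes after excision, are called 0 d. Explants kept 4 days on CIM are called CIM 4 d, and those that then spent 4 or 6 days on SIM are called SIM 4 d and SIM 6 d. Every combination of genotype and stage had 3 libraries, 24 in all.

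A root hair is the tubular outgrowth of a single root epidermal cell. RHD6 and RSL1 act early in hair formation in that cell, and RSL2 and RSL4 act after them to drive outgrowth. The expansins EXPA7 and EXPA18 loosen the wall, PRP1 and PRP3 are structural proline-rich wall proteins, LRX1 is a leucine-rich repeat extensin needed for hair shape, and COW1 organises phosphoinositide signalling at the growing tip. These genes are best known from roots, whereas the tissue here began as hypocotyl and later held callus and developing shoots.

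The promoters are shown because many hair wall genes carry the root hair element (RHE), a short motif to which RSL4 is known to bind. Its full form was searched on both strands of the 250 bases before each gene's annotated start in RefSeq's TAIR10.1 assembly, a copy that may differ in annotation from the TAIR10 build of the deposited files. All 5 wall genes held 1 match each and the 4 bHLH genes and COW1 held 0, whereas 207 of 27443 protein-coding genes, 0.754%, held one. The fixed letters alone, TGNNNNCACG or TGNNNNNCACG, were found in the same 5 members and in 9.02% of all windows. A match here is a description of letters and not a shown binding site, and EXPA7 and EXPA18 are among the genes in which the element was first studied. The windows lie on the plus strand before EXPA7 (chr1:4276255-4276504), PRP1 (chr1:20504651-20504900), PRP3 (chr3:23182472-23182721) and LRX1 (chr1:4069742-4069991), with the RHE match in capitals, read 5′ to 3′ along the gene.
EXPA7: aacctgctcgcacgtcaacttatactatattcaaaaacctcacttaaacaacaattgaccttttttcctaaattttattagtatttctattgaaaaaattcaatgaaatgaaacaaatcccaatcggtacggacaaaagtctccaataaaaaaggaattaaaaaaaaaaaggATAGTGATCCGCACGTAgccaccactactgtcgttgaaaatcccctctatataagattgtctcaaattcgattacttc
PRP1: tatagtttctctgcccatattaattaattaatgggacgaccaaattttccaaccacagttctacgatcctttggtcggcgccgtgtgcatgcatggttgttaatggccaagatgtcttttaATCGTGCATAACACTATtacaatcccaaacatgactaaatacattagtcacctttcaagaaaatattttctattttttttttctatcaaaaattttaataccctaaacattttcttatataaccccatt
PRP3: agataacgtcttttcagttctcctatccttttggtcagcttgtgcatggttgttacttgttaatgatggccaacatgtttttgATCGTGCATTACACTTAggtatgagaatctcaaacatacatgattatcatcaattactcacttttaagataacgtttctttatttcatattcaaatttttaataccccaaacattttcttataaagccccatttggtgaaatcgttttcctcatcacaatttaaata
LRX1: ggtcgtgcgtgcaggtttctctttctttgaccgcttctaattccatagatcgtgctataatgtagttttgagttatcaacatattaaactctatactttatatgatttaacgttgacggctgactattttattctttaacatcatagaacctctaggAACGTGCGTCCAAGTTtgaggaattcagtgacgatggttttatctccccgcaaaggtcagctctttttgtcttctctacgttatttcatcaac
For EXPA18 only 30 bases around its match are shown, since the window (chr1:23331313-23331562, plus strand) overlaps another annotated gene, AT1G62978.
EXPA18: caaaacaAACATGAACGCACGTCcattact
The match lay in the orientation of the gene in EXPA7 and EXPA18, between 78 and 62 and between 40 and 25 bases before the start. It lay in the opposite orientation in PRP1 (129 to 113 bases before), PRP3 (167 to 151) and LRX1 (93 to 78). In the same annotation the genes span chr1:4276505-4277969 (EXPA7, 3 exons), chr1:23331563-23333246 (EXPA18, 3 exons), chr1:20504901-20506504 (PRP1, 2 exons), chr3:23182722-23184042 (PRP3, 2 exons) and chr1:4069992-4072681 (LRX1, 1 exon), all on the plus strand. Among the other root hair lists, 7 of the 16 root hair specific (RHS) genes with a window held a match, and none of the epidermal patterning, other regulator, other wall and other tip growth genes did. Whether the element itself was used when the RHS set was assembled was not checked. The RHS count is therefore a description only.

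Libraries held 7979350 to 15591781 reads, so that 1 read was worth 0.0641 to 0.125 reads per 1000000 library reads (rpm), the unit of every level below. In the check of the mutated gene, the reads of the first SIZ1 isoform exceeded those of the third by 216 to 493 in each of the 12 WT libraries, whereas the difference was −1 to 0 in each of the 12 siz1-2 libraries. Earlier work on these data found 4 libraries that stood apart from their group over many genes (WT 0 d replicate 1, WT CIM 4 d replicate 2, WT SIM 6 d replicate 2 and siz1-2 CIM 4 d replicate 3). In the labels, the free-text description of replicates 2 and 3 at SIM 6 d, in both genotypes, gives 6 days on CIM and 4 days on SIM, while their titles and sampling times give the reverse. Titles and sampling times were followed, and calls at SIM 6 d are also given with replicate 1 alone at that stage, an alternative chosen after seeing the data, in which the lone library of a group is assumed to vary like the other groups. No label states that replicates came from separate cultures, and p-values therefore cover the spread among these libraries alone, which may be technical.

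The bHLH factors were at low levels throughout. RSL1, which shares the early role of RHD6, had 1 read in all 24 libraries, in siz1-2 0 d replicate 3. For the groups with 0 reads, the 3 reads that such a count allows correspond to at most 0.0735 to 0.0987 rpm over the group. RSL2, a factor of hair outgrowth, reached 0.898 rpm at most, in siz1-2 SIM 4 d replicate 3, and had 18 reads in that group against 8 in WT SIM 4 d. Both stayed below 1 rpm in every library and were not tested, which leaves 8 of the 10 members tested.

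RHD6 was the only member to reach 1 rpm in any library at CIM 4 d. In WT its replicates 1 to 3 had 0.165, 0.0872 and 0.766 rpm when freshly cut, 1.04, 4.22 and 0.877 rpm after callus medium, then 3.39, 3.88 and 4.09 rpm after 4 days of shoot medium and 7.48, 9.88 and 2.78 rpm after 6. In siz1-2 they had 0, 0.12 and 0.444 rpm when freshly cut, 5.28, 4.12 and 9.73 rpm after callus medium, then 2.7, 2.99 and 6.29 rpm after 4 days of shoot medium and 3.82, 3.35 and 3.8 rpm after 6. In both genotypes every CIM 4 d library lay above every 0 d library, a separation whose share over all tested genes was not counted. In WT a single CIM library, replicate 2, lay far above the others. RHD6 was the 1 member called from 0 d to CIM 4 d in each genotype, where 49.1% of all tested genes were called higher in WT and 49.6% in siz1-2. On the log2(rpm + 1) scale RHD6 rose from 0 d to CIM 4 d by 1.05 ± 0.39 (SE) in WT (limma, adjusted p = 0.0206) and by 2.58 ± 0.39 in siz1-2 (adjusted p = 5.88e-06). In reads this was 7.31-fold in WT (95% counting interval 3.74 to 15.9) and 34.6-fold in siz1-2 (14.6 to 107.8). Without WT CIM 4 d replicate 2 the WT value was 0.58 with adjusted p = 0.17, and the call was also lost without WT 0 d replicate 1 (0.0591) or replicate 2 (0.0717) and in a fit of those groups alone (0.0503). In siz1-2, limma gave 0.52 ± 0.32 for COW1 (adjusted p = 0.144) and −0.63 ± 0.55 for PRP3 (adjusted p = 0.298), whereas edgeR called both, COW1 higher (adjusted p = 0.0158) and PRP3 lower (0.0452), as did DESeq2 (0.00435 and 0.00147). COW1 went from 0 to 15 reads there and PRP3 from 17 to 1.

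**Figure D1:**
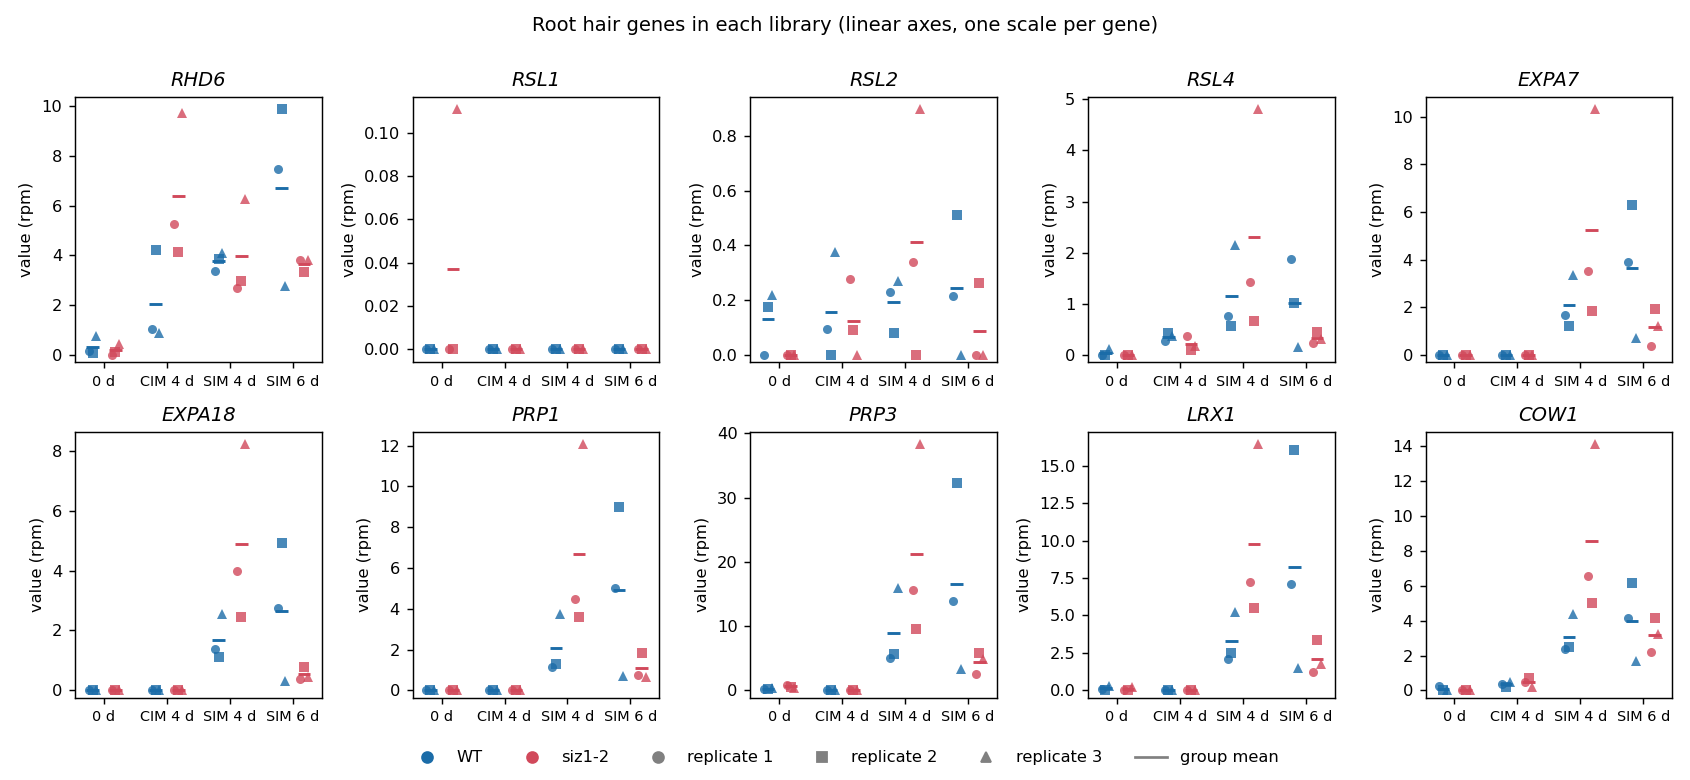
Level of each root hair gene in every library, in rpm on a linear axis of its own for each gene, by stage, with WT in blue, siz1-2 in red, replicates 1 to 3 as circles, squares and triangles and the group mean as a line. The wall genes and COW1 are near 0 at 0 d and CIM 4 d and appear on SIM, where siz1-2 replicate 3 at SIM 4 d is the highest library for the 5 wall genes and COW1.

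RSL4, the factor of hair elongation, stayed below 1 rpm at CIM 4 d and passed it in some SIM libraries. Its CIM 4 d libraries lay above those of 0 d in both genotypes (11 reads against 1 in WT, 7 against 0 in siz1-2). The share of all tested genes separated in this way was not counted, and 49.1% were called higher in WT and 49.6% in siz1-2. Limma did not call that rise (adjusted p = 0.306 in WT and 0.478 in siz1-2). Its WT levels were 0, 0 and 0.109 rpm when freshly cut, 0.283, 0.422 and 0.376 rpm after callus medium, then 0.77, 0.565 and 2.15 rpm after 4 days of shoot medium and 1.87, 1.02 and 0.159 rpm after 6. In siz1-2 it had no read when freshly cut, 0.37, 0.0897 and 0.184 rpm after callus medium, then 1.44, 0.672 and 4.81 rpm after 4 days of shoot medium and 0.234, 0.441 and 0.322 rpm after 6. The SIM 4 d libraries lay above the CIM libraries in both genotypes, and in siz1-2 the SIM 6 d libraries lay below all SIM 4 d libraries. The rise to SIM 4 d was called in siz1-2 (1.25 ± 0.34, adjusted p = 0.00476) and was 0.60 ± 0.34 in WT (adjusted p = 0.166). In a fit of the siz1-2 groups alone the siz1-2 adjusted p was 0.0578, and the difference between the genotypes in this rise was 0.65 ± 0.49 (adjusted p = 0.745).

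The 5 wall genes and COW1 rose from CIM 4 d to SIM 4 d. The SIM explants had also been longer in culture, and no group was kept on CIM as long. Medium and time in culture therefore cannot be told apart. EXPA7, EXPA18 and PRP1 had 0 reads in all 12 libraries of 0 d and CIM 4 d, and LRX1 had 0 reads in the 6 libraries of CIM 4 d. EXPA7 was at 1.69, 1.21 and 3.35 rpm in WT SIM 4 d and at 3.55, 1.87 and 10.3 in siz1-2 SIM 4 d. EXPA18 was at 1.39, 1.13 and 2.55 rpm in WT and 3.97, 2.47 and 8.21 in siz1-2 at that time. In both expansin genes the third replicate was the highest of its group, and every SIM 4 d library lay above the CIM libraries. PRP3 held a few reads in fresh hypocotyls, 0.165, 0.174 and 0.328 rpm in WT and 0.914, 0.478 and 0.444 rpm in siz1-2, and was the 1 of 8 members whose siz1-2 libraries all lay above WT at 0 d, where 10.9% of all tested genes did. Its pooled reads there, 17 against 7, gave 2.92-fold with a counting interval of 1.15 to 8.32. LRX1 had 4 reads in WT and 2 in siz1-2 at 0 d, and COW1 3 and 0. At SIM 4 d every library lay above these traces for all 3 genes. PRP1 was at 1.15, 1.29 and 3.76 rpm in WT SIM 4 d and at 4.48, 3.59 and 12.1 in siz1-2. PRP3 had 1 read in each genotype at CIM 4 d, then 5.0, 5.73 and 16.0 rpm in WT SIM 4 d and 15.6, 9.56 and 38.3 in siz1-2. LRX1 was at 2.08, 2.5 and 5.23 rpm in WT SIM 4 d and at 7.26, 5.53 and 16.4 in siz1-2. For LRX1 the lowest siz1-2 library was above the highest WT library. COW1 was at 0.378, 0.169 and 0.501 rpm in WT CIM 4 d, 0.463, 0.717 and 0.184 in siz1-2 CIM 4 d, then 2.39, 2.5 and 4.36 in WT SIM 4 d and 6.59, 5.01 and 14.1 in siz1-2. COW1 showed the same separation of genotypes at SIM 4 d.

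Against CIM 4 d, limma called 6 of 8 tested members higher in WT at SIM 4 d and 7 of 8 in siz1-2, where 21.2% and 28.8% of all 20361 tested genes were called higher. The tested members other than RHD6 reached 1 rpm in SIM libraries only, so that they passed the filter on low values through the group where they are high, and these counts say nothing about the members as a group. For 7 of 8 members in each genotype, all SIM 4 d libraries lay above all CIM 4 d libraries, as they did for 24.3% and 33.1% of all tested genes. The 6 called in WT were PRP3 (3.08 ± 0.55, adjusted p = 0.00015), LRX1 (2.02 ± 0.47, 0.00174), COW1 (1.57 ± 0.32, 0.000508), EXPA7 (1.57 ± 0.44, 0.00728), PRP1 (1.52 ± 0.46, 0.0117) and EXPA18 (1.39 ± 0.37, 0.00486). Without WT SIM 4 d replicate 3 the adjusted p of PRP1 was 0.074. These 6 changed in siz1-2 by 4.21 (PRP3), 3.29 (LRX1), 2.62 (COW1), 2.40 (EXPA7), 2.79 (PRP1) and 2.44 (EXPA18), each called. In pooled reads, against 3 reads over the CIM group, LRX1 was at least 34.2-fold higher in WT and at least 111.6-fold higher in siz1-2. The same bounds were 21.9 and 61.2 for EXPA7, 21.9 and 77.5 for PRP1, and 17.6 and 55.8 for EXPA18. COW1 was 9.59-fold higher in WT (95% counting interval 5.05 to 20.5) and 19.6-fold in siz1-2 (11.7 to 35.3). RHD6 did not follow them, at 0.82 ± 0.39 in WT (adjusted p = 0.098) and −0.56 ± 0.39 in siz1-2 (adjusted p = 0.241), although without WT CIM 4 d replicate 2 its WT value was 1.29 and was called (adjusted p = 0.00955). In bulk tissue, more cells of a type and more RNA per cell cannot be told apart.

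**Figure D2:**
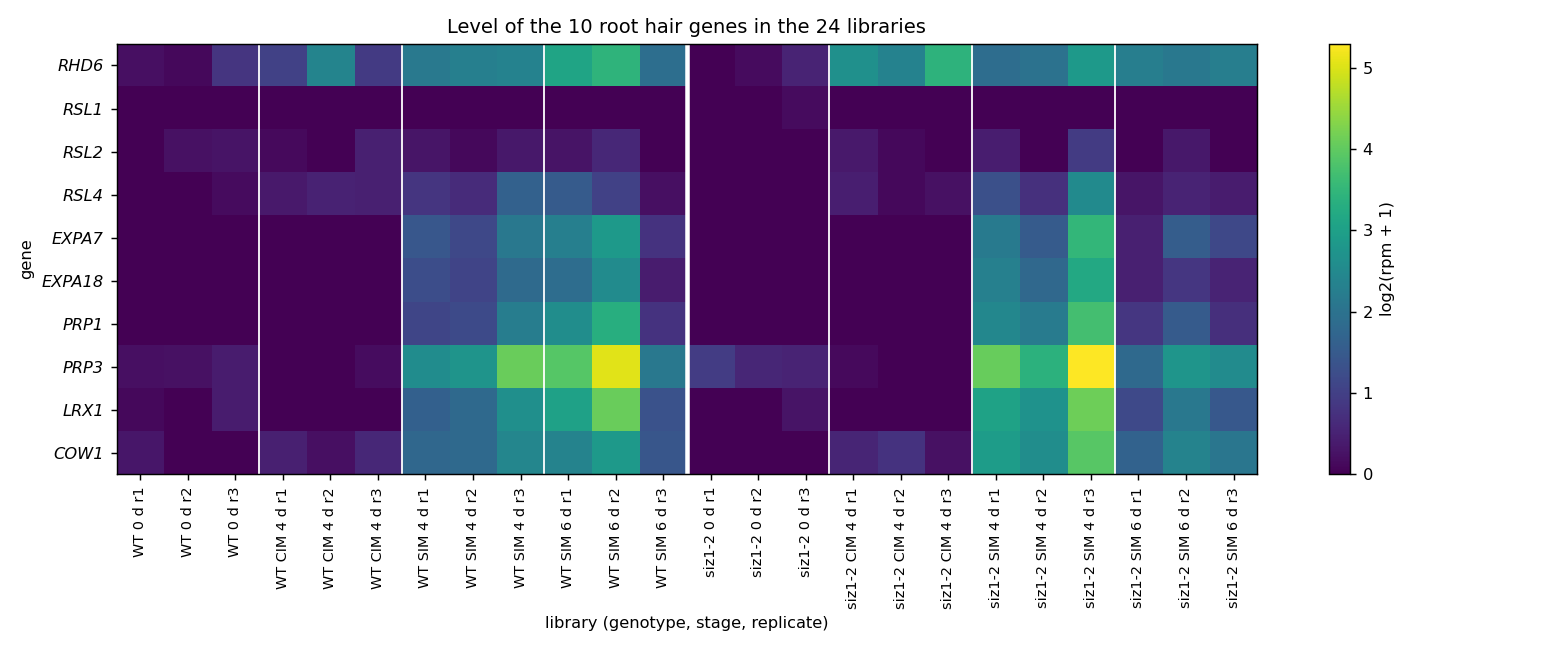
Level of the 10 root hair genes (one per line) in the 24 libraries, as log2(rpm + 1) by colour, in order of genotype, stage and replicate. The brightest cells are PRP3 in siz1-2 SIM 4 d replicate 3 and WT SIM 6 d replicate 2, and the wall genes and COW1 brighten together in the same libraries.

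Within a stage on SIM, the members varied together across libraries. The third replicate was the highest library for 8 of 8 tested members in both WT and siz1-2 at SIM 4 d. At SIM 6 d, replicate 2 was the highest for 7 of 8 in each genotype, and WT replicate 3 was the lowest for 8 of 8, with a ratio of highest to lowest library between 3.55 and 15.4. The share of all tested genes with the same order of libraries was not counted. These counts therefore do not show an order particular to the members. Over the 24 libraries, each member's correlation with the mean of the other 7 tested members was 0.983 for EXPA7, 0.98 for PRP1, 0.974 for LRX1, 0.97 for EXPA18, 0.957 for PRP3, 0.955 for COW1, 0.877 for RSL4 and 0.592 for RHD6. These values are descriptions across libraries of 8 groups that share their stage. PRP1 and PRP3, and EXPA7 and EXPA18, are related genes, and the counting rule for reads that match both of a pair was not stated. With 1 isoform per gene, reads summed to 102.5% to 103.6% of the library total, so some reads were counted for more than 1 gene. Whether reads of these pairs were among them was not tested.

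Levels were compared between members only per kilobase of annotated transcript. In WT SIM 4 d, PRP3 was the highest at 7.29 rpm per kb, followed by RHD6 (2.65), EXPA7 (1.87), COW1 (1.52), PRP1 (1.51), EXPA18 (1.35), LRX1 (1.22), RSL4 (0.867) and RSL2 (0.14). The neighbours from EXPA7 down to LRX1 did not differ beyond their spread between replicates. In siz1-2 SIM 4 d, PRP3 was again the highest at 17.3 rpm per kb, and PRP1 (4.88), EXPA7 (4.70), COW1 (4.22), EXPA18 (3.90), LRX1 (3.62) and RHD6 (2.80) followed within each other's spread.

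At SIM 6 d the wall genes were spread widely in WT and less so in siz1-2. PRP3 was at 14, 32.2 and 3.34 rpm in WT SIM 6 d and 2.5, 5.82 and 4.9 in siz1-2. LRX1 was at 7.12, 16.0 and 1.51 rpm in WT and 1.25, 3.35 and 1.74 in siz1-2. PRP1 was at 5.04, 9.0 and 0.715 rpm in WT and 0.78, 1.85 and 0.645 in siz1-2. In each of these 3 genes WT replicates 1 and 2 lay above all siz1-2 libraries, while WT replicate 3 lay among them. EXPA7 showed 3.89, 6.30 and 0.715 rpm in WT and 0.39, 1.94 and 1.23 in siz1-2. EXPA18 showed 2.73, 4.90 and 0.318 rpm in WT and 0.39, 0.793 and 0.451 in siz1-2. COW1 showed 4.17, 6.15 and 1.67 rpm in WT and 2.18, 4.14 and 3.22 in siz1-2. In all 3 genes WT replicates 1 and 2 were again the highest of the 6 libraries, and in EXPA18 and COW1 WT replicate 3 was the lowest.

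In siz1-2, limma called 1 of 8 members lower at SIM 6 d than at SIM 4 d, EXPA18 (−1.82 ± 0.37, adjusted p = 0.0287), where 0.344% of all tested genes were called lower. The call was lost in the replicate-block fit (adjusted p = 0.0514), in the fit of the 2 groups alone (0.0764), in edgeR (0.181) and DESeq2 (0.0523), and when any siz1-2 library of these groups other than SIM 4 d replicate 2 was left out (0.0566 to 0.151). With only replicate 1 at SIM 6 d it was −1.96 (adjusted p = 0.013) and 4 members were called lower (0.629% of all tested genes). Without the 4 libraries that stood apart, 3 were called lower (0.992% of all tested genes). The siz1-2 libraries of SIM 6 d lay below all those of SIM 4 d for 6 of 8 members, where 11.2% of all tested genes did. Unadjusted limma p ran from 9.9e-05 (EXPA18) to 0.0070 (EXPA7) for the members other than RHD6 (0.937). Of all tested genes, 8.44% had an unadjusted p under 0.05. EXPA18 fell to 21 reads from 208, and its reads were 9.63-fold lower (95% counting interval 6.13 to 15.9). In WT, limma called 0 of 8 members, edgeR 0 and DESeq2 0, with 0 at an unadjusted p under 0.05 (12.8% of all tested genes), and 0.589% of all tested genes were called. With only replicate 1 at SIM 6 d, WT again had 0 called.

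Between genotypes, limma called 0 of 8 members at each of the 4 stages, where 11% of all tested genes were called when freshly cut, 2.2% after callus medium, 2.2% after 4 days of shoot medium and 3.01% after 6. At an unadjusted p under 0.05 there were 0, 1, 4 and 4 members, beside 24.8%, 12.2%, 14.1% and 13.5% of all tested genes, and edgeR and DESeq2 also called 0 at each stage. At SIM 4 d the siz1-2 values were 1.27 ± 0.47 for LRX1, 1.27 ± 0.46 for PRP1, 1.15 ± 0.32 for COW1, 1.11 ± 0.55 for PRP3, 1.05 ± 0.37 for EXPA18 and 0.84 ± 0.44 for EXPA7, with adjusted p from 0.0727 (COW1) to 0.419 (EXPA7). In 2 of 8 members, LRX1 and COW1, all siz1-2 libraries lay above all WT libraries, where 14.3% of all tested genes did. Without the 4 libraries that stood apart COW1 was called (adjusted p = 0.0318). At SIM 6 d the 5 wall genes were lower in siz1-2 by values of −0.92 ± 0.44 (EXPA7) to −1.31 ± 0.55 (PRP3), with adjusted p from 0.197 to 0.379. Without WT SIM 6 d replicate 3, the low library, the 5 members EXPA7, EXPA18, PRP1, PRP3 and LRX1 were called lower (adjusted p from 0.00357 to 0.0389), where 2.22% of all tested genes were. That library was marked by these members' own low values, lowest for 8 of 8, and was not among the 4 that stood apart. None of these 5 members was called without WT SIM 6 d replicate 1, without replicate 2 or without the 4 libraries. With only replicate 1 at SIM 6 d, 0 members were called.

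**Figure D3:**
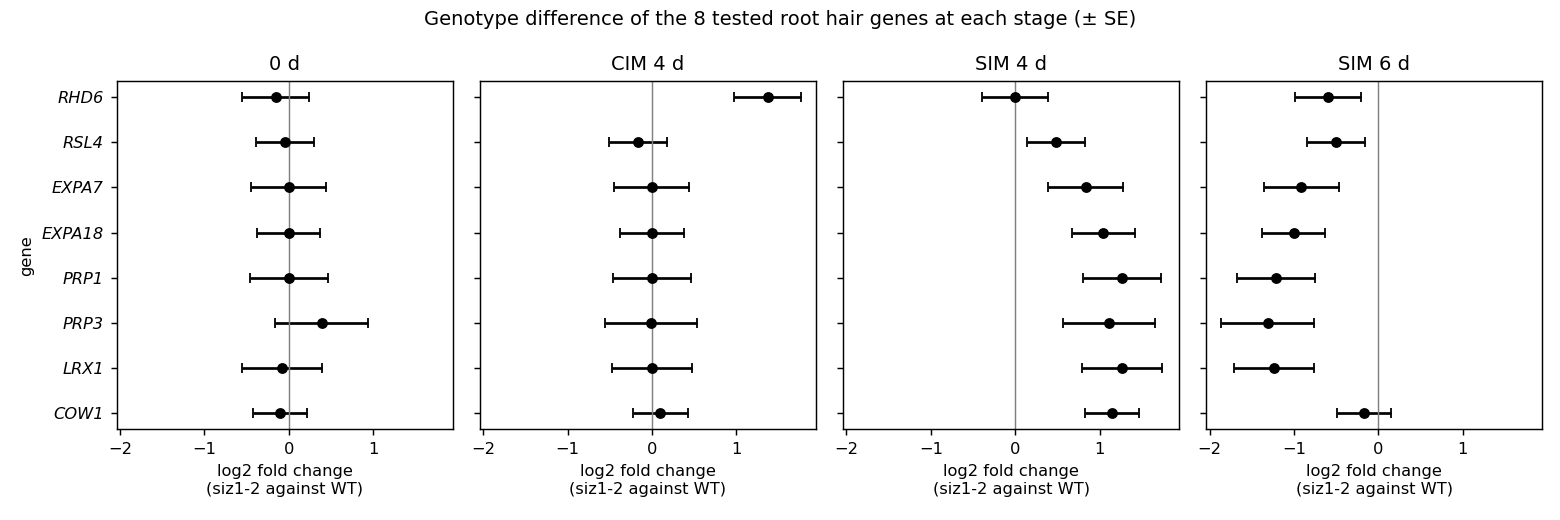
Difference of siz1-2 from WT in log2(rpm + 1) for the 8 tested root hair genes at each stage, as points with bars of 1 standard error from limma. The 5 wall genes lie to the right of 0 at SIM 4 d and to the left at SIM 6 d, and RHD6 lies to the right at CIM 4 d, but 0 of these points is past an adjusted p of 0.05.

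RHD6 was higher in siz1-2 at CIM 4 d by 1.37 ± 0.39, with adjusted p = 0.0786 and overlapping libraries. Without WT CIM 4 d replicate 2 its adjusted p was 0.00927 at 1.84, and without the 4 libraries that stood apart it was 0.0178. For the difference between the genotypes in the change from SIM 4 d to SIM 6 d, limma, edgeR and DESeq2 called 0 of 8 members, with 6 at an unadjusted p under 0.05 (3.07% of all tested genes) and values of −2.5 ± 0.67 for LRX1, −2.48 ± 0.65 for PRP1, −2.42 ± 0.77 for PRP3, −2.05 ± 0.53 for EXPA18 and −1.75 ± 0.63 for EXPA7. Of all tested genes, 0.00982% were called in this difference. Without WT SIM 6 d replicate 3, the library marked by these members' own low values, 4 members were called, where 0.167% of all tested genes were called lower. No member was called without WT SIM 6 d replicate 1 or without replicate 2. With only replicate 1 at SIM 6 d, 0 were called, and the lowest adjusted p were 0.0585 for LRX1 and 0.0819 for EXPA18 and PRP1. For the differences between genotypes in the changes to CIM 4 d and to SIM 4 d, limma also called 0 of 8, beside 3.15% and 0.211% of all tested genes. At an unadjusted p under 0.05 there were 1 and 2 members, beside 16.3% and 9.44% of all tested genes.

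The other genes of the root hair pathway were described from a list of 70 genes, 69 of them in the files and 60 of them tested. From CIM 4 d to SIM 4 d, 26 of 60 were called higher and 8 lower in WT, and 37 higher and 7 lower in siz1-2. Over all genes 21.2% and 28.8% were called higher, and 24.5% and 25.1% lower. Of the tested genes, 9 RHS, 3 other wall, 2 other tip growth and 1 other regulator gene reached 1 rpm in SIM libraries only. They passed the filter through the groups where they are high, so the counts of higher calls say nothing about the list as a group. The largest rises in WT were RBOHC (3.01 ± 0.37), the oxidase that makes reactive oxygen at the hair tip, RHS2 (2.54 ± 0.31) and RHS13 (2.17 ± 0.49). In siz1-2 they were RHS2 (3.27 ± 0.31), PRPL1 (2.85 ± 0.47), a proline-rich wall protein, and RHS13 (2.73 ± 0.49). The largest falls in WT were JKD (−2.92 ± 0.28), a zinc finger factor of root patterning, GL3 (−1.87 ± 0.22), a bHLH factor, and WER (−1.67 ± 0.30), the MYB factor of non-hair cells. In siz1-2 the falls were JKD (−2.49 ± 0.28), GL3 (−2.15 ± 0.22) and LRX2 (−1.46 ± 0.37), an extensin related to LRX1. The RHS genes, a set found in earlier work to be specific to hair cells, had 7 of 13 tested genes called higher in WT and 12 of 13 in siz1-2. Of these 13, 9 reached 1 rpm in SIM libraries only and 5 had 0 reads at CIM 4 d, so that the filter favoured higher calls as it did for the members. The summed level of the list went from 7.94 to 10.8 rpm in WT CIM 4 d to 30.7 to 56.2 in WT SIM 4 d and from 4.13 to 6.20 to 32.0 to 102.2 in siz1-2.

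From 0 d to CIM 4 d, 16 of 60 pathway genes were called higher and 12 lower in WT, and 12 and 14 in siz1-2. Over all genes 49.1% were called higher and 26.6% lower in WT, and 49.6% and 27.3% in siz1-2. The WT split was 38.1% and 35.5% in edgeR. With the authors' scaling the median of all genes in this step was 0.35 in WT and 0.37 in siz1-2, and with median-of-ratios scaling it was −0.01 in both. The rises were led in WT by XTH14 (2.48 ± 0.45), a wall-modifying enzyme, PRX7 (2.38 ± 0.51), a peroxidase, and SCM (2.02 ± 0.11), a receptor of positional signals, and in siz1-2 by SCM (2.55 ± 0.11), XTH14 (2.49 ± 0.45) and GL3 (2.14 ± 0.22). The falls were led in both genotypes by OBP4 (−3.79 ± 0.16 in WT), GTL1 (−3.73 ± 0.38), both of them repressors of hair growth, and ACT2 (−3.25 ± 0.12), an actin gene, and in siz1-2 they were −3.93, −3.87 and −3.05. From SIM 4 d to SIM 6 d the test called 0 of 60 in WT, with 12 at an unadjusted p under 0.05 (12.8% of all tested genes), and edgeR 0 and DESeq2 2. In siz1-2 it called RHS15 lower (−1.49 ± 0.31, adjusted p = 0.0316). With only replicate 1 at SIM 6 d, WT had 0 called and siz1-2 had 4, PRX7, RHS9, RHS12 and RHS18, while RHS15 was not called (adjusted p = 0.0953).

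Between genotypes, limma called 2 of 60 pathway genes higher and 1 lower when freshly cut, beside 11% of all tested genes in either direction. It called 1 lower after callus medium (2.2% of all tested genes) and 0 after 4 days of shoot medium (2.2%). After 6 days of shoot medium it called 3 lower, beside 3.01%. The called genes are named by stage. At 0 d they were CPC (0.93 ± 0.22, adjusted p = 0.00929), a MYB factor that moves into hair cells, LRL1 (0.35 ± 0.10, 0.028), a bHLH factor, and SCM (−0.61 ± 0.11, 0.000735). At CIM 4 d it was RHS10, a receptor-like kinase gene that restrains hair growth (−0.94 ± 0.21, 0.0161). At SIM 4 d there was none, with 23 of 60 at an unadjusted p under 0.05 (14.1% of all tested genes), and 0 in edgeR and 0 in DESeq2. At SIM 6 d they were ZFP5 (−1.14 ± 0.31, 0.0491), a zinc finger factor upstream of hair fate, RHS10 (−0.86 ± 0.21, 0.0266) and PIP5K3 (−0.85 ± 0.21, 0.0306), a kinase of tip phosphoinositides. With only replicate 1 at SIM 6 d, ZFP5 (adjusted p = 0.00215) and RHS12 (0.0441) were called, and RHS10 (0.437) and PIP5K3 (0.223) were not.

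The genes most like the members in pattern were ranked by the correlation, over 24 libraries and 19469 candidate genes, of log2(rpm + 1) with the mean standardised profile of the 8 tested members, given as a description with no test. The 8 nearest were AT1G05250 and AT1G05240 (0.988 each), PRPL1 (0.987), AT5G57625 (0.984), RHS19 (0.983), RHS13 (0.981), RHS12 (0.981) and EXT12 (0.981). AT1G05250 and AT1G05240 have near-identical values, and their reads cannot be told apart with certainty. EXT12 encodes an extensin and RHS19 a peroxidase. Of the 52 pathway genes that were candidates, 13 were among the first 100. Of the first 100, 98 had a promoter window and 5 of these held the RHE, RHS13, RHS18, RHS9, RHS15 and AT3G09925. The limit given for the RHS list applies to RHS13, RHS18, RHS9 and RHS15.

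**Figure D4:**
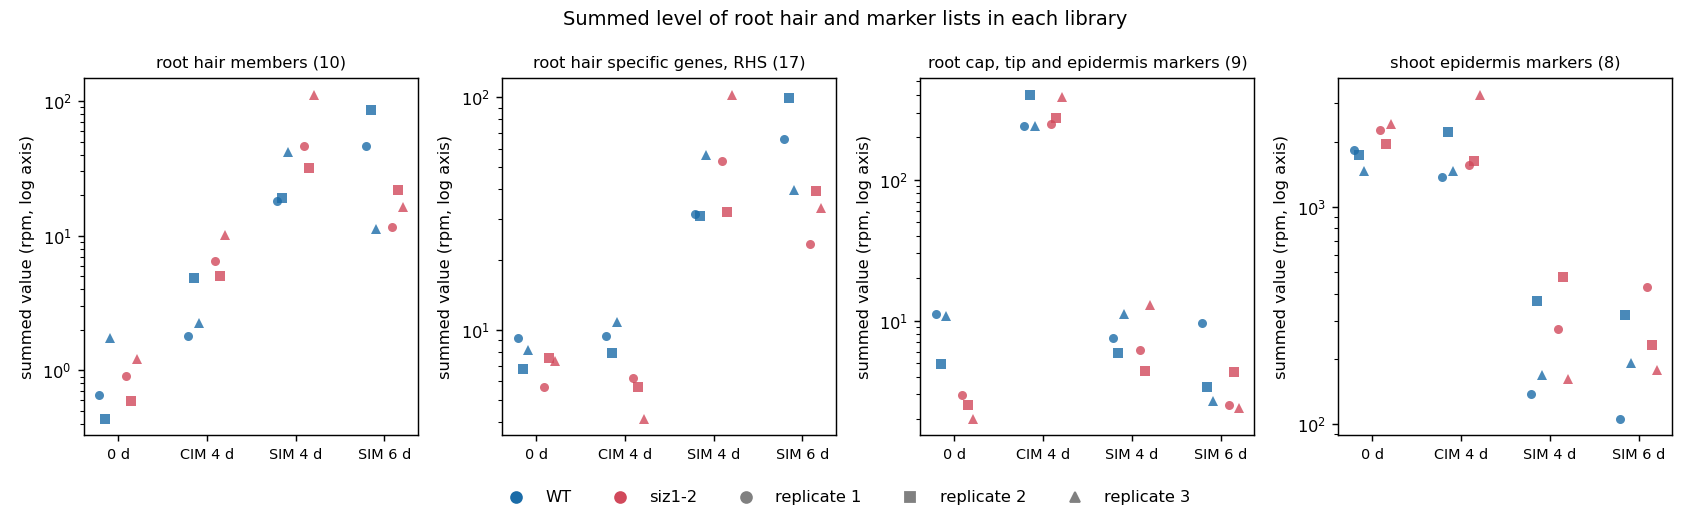
Summed level of 4 gene lists in every library, in rpm on a log axis, by stage, with WT in blue and siz1-2 in red. The root hair members and RHS genes are highest on SIM, the root cap, tip and epidermis markers are highest at CIM 4 d, and the shoot epidermis markers are lower on SIM than at 0 d and CIM 4 d.

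The levels of markers of other cell types moved in their own ways. From 0 d to CIM 4 d, 49.1% of all tested genes were called higher in WT and 49.6% in siz1-2. From CIM 4 d to SIM 4 d, 24.5% were called lower in WT and 25.1% in siz1-2. All 8 tested genes of the 9 on the root cap, root tip and root epidermis list were called higher at CIM 4 d than at 0 d in both genotypes and lower again at SIM 4 d. Their summed level was 241.0 to 402.4 rpm at CIM 4 d in WT against 4.88 to 11.1 at 0 d and 5.89 to 11.2 at SIM 4 d, and in siz1-2 249.0 to 388.4 against 2.0 to 2.94 and 4.41 to 12.96. At 0 d in siz1-2, 5 of these 9 genes had 0 reads. How many of the 8 tested passed the filter on low values through CIM 4 d alone was not counted. Their calls in these 2 steps therefore say nothing about the list as a group. WOX5, the marker of the root stem cell niche, had a mean of 78.5 rpm in WT CIM 4 d and 0.537 in WT SIM 4 d. PIN2, an auxin carrier of the root epidermis, fell from 17.5 to 4.67. Shoot and hypocotyl epidermis markers summed to 1380.2 to 3289.6 rpm across 0 d and CIM 4 d libraries and to 105.8 to 477.8 rpm across SIM libraries, and 8 of 8 were lower at SIM 4 d in both genotypes. Endodermis markers summed to 282.8 to 333.0 rpm in WT and 481.4 to 666.6 in siz1-2 at 0 d, and to 7.25 to 52.7 later. At 0 d, 2 of 7 endodermis markers were called higher in siz1-2 and 3 of 8 root cap, root tip and root epidermis markers lower, where 11% of all tested genes were called in either direction. The part of these differences in the 0 d values of PRP3, CPC, LRL1 and SCM was not tested. The 4 trichome markers summed to 87.4 to 127.2 rpm at 0 d and to 18.8 to 37.4 later, most of it from SIAMESE (AT5G04470), a cell cycle inhibitor. Of the 2 tested, NOK was called higher and SIAMESE lower from 0 d to CIM 4 d in both genotypes, while GL1, the defining trichome factor, had a mean of at most 0.0716 rpm in any group. The part of these lists in the rise of the hair wall genes was not tested.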

How the data were processed

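RNA from 24 hypocotyl libraries was sequenced from stranded mRNA libraries, per the labels' protocols. Bowtie 1.2.1, bcl2fastq and the TAIR10 build appear in the submitters' processing notes. How reads were assigned to isoforms, and whether by strand, was not given in the sources used here. Values of the deposited signal are on the scale of reads per 1000000 library reads (rpm), since every value equals whole reads over 1 library total (tolerance 0.001 of a read). Each gene took its isoform with the highest mean; all 10 members have 1 isoform in the files. Genes with at least 1 rpm in at least 3 libraries (20361) were tested with limma 3.58.1 (trend, robust) on log2(rpm + 1), in 1 model of 8 groups, with Benjamini-Hochberg adjusted p below 0.05 as the call; 5599 genes were not tested. edgeR 4.0.16 (TMM, quasi-likelihood) and DESeq2 1.42.0 on the recovered reads, another pseudocount (0.5), no filter, summed isoforms, median-of-ratios scaling, a replicate block, and left-out libraries were alternatives. Intervals cover counting error only. Members and lists were chosen with earlier results of these data known. All members are named; of pathway genes, those called between genotypes and the 3 largest rises and falls per stage comparison are named. Sequences, coordinates and gene lengths came from RefSeq's TAIR10.1 by locus identifier, with all 10 matched. EXPA7 overlaps AT1G12570 by 23 bases on the opposite strand, and AT1G12570 was at most at 0.0926 rpm; EXPA18 overlaps AT1G62978, not analysed here, by 46. Within groups, no 2 replicates agreed within sampling noise (chi-square per degree of freedom 2.73 to 38.7 over 24 pairs).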

Additional observations from a re-analysis of the deposited data

How the results depend on the processing

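From CIM 4 d to SIM 4 d, members called in WT (6) were 7 without the 4 libraries, with RHD6 added (1.29, adjusted p = 0.00243), and 5 to 7 with each library left out (PRP1 lost without SIM 4 d replicate 3, RHD6 added without CIM 4 d replicate 2). In siz1-2 (7) they were 6 in the fit of only the groups compared, which lost RSL4, and 7 with each library left out. The direction of the members at or near 0 reads at CIM 4 d could not have turned. The log2 difference of PRP3 between SIM 6 d and SIM 4 d in WT, 0.55 and not called, was −0.131 without the 4 libraries that stood apart and ranged from −0.131 to 1.338 with each library left out. Depth limits the low members: 1 read is worth up to 0.125 rpm. Other counts of members called changed as follows. Without the 4 libraries that stood apart, siz1-2 against WT had 1 called at CIM 4 d and 1 at SIM 4 d (0 in the full fit at both), WT CIM 4 d against 0 d had 0 (1), siz1-2 SIM 6 d against SIM 4 d had 3 (1), and the genotype difference in the change to CIM 4 d had 1 (0). For siz1-2 CIM 4 d against 0 d (1), a pseudocount of 0.5 gave 2, and edgeR, DESeq2 and the fit of only the groups compared gave 3. For siz1-2 SIM 6 d against SIM 4 d, edgeR, DESeq2, the fit of only the groups compared and the replicate block gave 0, and only replicate 1 at SIM 6 d gave 4. For the other pathway genes, siz1-2 against WT at CIM 4 d (1) had 0 in the fit of only the groups compared and without the 4 libraries. At SIM 4 d (0) it had 1 with a pseudocount of 0.5, 1 with no filter and 4 without the 4 libraries. At SIM 6 d (3) it had 1 in edgeR, 0 in the fit of only the groups compared and 1 without the 4 libraries. WT SIM 6 d against SIM 4 d (0) had 2 in DESeq2. The same step in siz1-2 (1) had 0 in edgeR and in the fit of only the groups compared, 4 in DESeq2, 5 without the 4 libraries and 4 with only replicate 1 at SIM 6 d. The genotype difference in the change to CIM 4 d (0) had 1 in DESeq2 and 1 without the 4 libraries. The share of all tested genes called also changed with the setting. For lower calls in siz1-2 SIM 6 d against SIM 4 d it was 0.344% in the full fit and 0.992% without the 4 libraries. These counts alone therefore do not show a change particular to the members or the pathway list. The cause of these changes was not tested. With each library left out in turn, members called ranged from 0 to 1 for siz1-2 against WT at CIM 4 d, for CIM 4 d against 0 d in WT, for siz1-2 SIM 6 d against SIM 4 d and for the genotype difference in the change to CIM 4 d. They ranged from 0 to 5 for siz1-2 against WT at SIM 6 d and from 0 to 4 for the genotype difference in the change to SIM 6 d. Pathway genes called ranged from 0 to 1 at CIM 4 d and SIM 4 d, 0 to 14 at SIM 6 d, 0 to 1 for SIM 6 d against SIM 4 d in each genotype, 0 to 1 for the genotype difference in the change to CIM 4 d and 0 to 6 in that to SIM 6 d. Both maxima at SIM 6 d came without WT SIM 6 d replicate 3, where 2.22% of all tested genes were called lower between genotypes at SIM 6 d. In the genotype difference in the change to SIM 6 d, 0.167% were called lower. Deviations from the group means were correlated between WT and siz1-2 libraries of the same stage. The correlations were −0.731 to 0.607 at the same replicate number and −0.778 to 0.805 at different numbers. Whether libraries with the same number share a batch was not tested. The replicate block moved the count for siz1-2 SIM 6 d against SIM 4 d from 1 to 0.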
